A study of Homo sapiens with 6 samples.

Results

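DNA replication begins at origins, where the origin recognition complex (ORC) and the licensing factors CDC6 and CDT1 load the ring-shaped MCM2-7 helicase onto DNA. The kinase CDC7-DBF4 then helps to recruit CDC45 and the GINS complex, which turn the ring into an active helicase, and DNA polymerases copy the strands behind it with the clamp PCNA, its loader RFC and the single-strand binding protein RPA. Many genes of this machinery are known as targets of the E2F transcription factors and are transcribed most strongly around the entry into S phase. A set of 52 such genes was examined here: the rows of the gene table whose Ensembl identifier maps to a fixed list of symbols, among 58825 identifiers in all. All 52 passed the filter on low counts, and 16208 genes were tested in total.

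The cells were SKOV3, a human epithelial ovarian cancer cell line. They were transfected either with a negative control siRNA (NC, 3 libraries) or with si-EIF5A2, an siRNA against the translation factor gene EIF5A2 (3 libraries), and RNA was taken after 48 h, a time that the series' own description gives. The comparison asks how RNA levels differ once EIF5A2 is knocked down. The labels do not say that the libraries of a group came from separate cultures, so p-values measure the spread between these libraries, which may be technical. The knockdown was transient, with 1 siRNA and 1 cell line.

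The deposited totals were 46900204 to 74142267 estimated counts per library, and a sequenced fragment appeared to be worth about 3.82 of them. Levels are given as CPM (counts scaled to a fixed library size) after TMM scaling, and a gene was called when its adjusted p was under 0.05 and its level differed by more than 1.5-fold. EIF5A2 stood at 27.8, 29.8 and 29.9 CPM in NC and at 2.76, 4.04 and 4.27 CPM in si-EIF5A2, which was 12.7% of the NC mean. Of the SKOV3 markers, KRT8, KRT18, PAX8 and ERBB2 were expressed in both groups, with KRT8 and PAX8 called lower in si-EIF5A2 (608 against 377 CPM and 106 against 61.0 CPM), while KRT19 (3.22 CPM in NC) and EPCAM (1.55 CPM in NC) were low. The 12 markers of leukocytes, endothelium and fibroblasts summed to 27.9 to 32.8 CPM in NC and 1.82 to 4.003 CPM in si-EIF5A2, almost all of the NC sum from the endothelial gene CDH5 (28.3 against 0.833 CPM). Without CDH5 the sums were 1.999 to 3.58 and 0.861 to 3.44 CPM, and the leukocyte markers PTPRC and CD3E were at 0 in every library. Their part in the results below was not tested.

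Most of the replication genes were lower in si-EIF5A2. In the quasi-likelihood test of edgeR, with p-values adjusted by Benjamini-Hochberg over all genes tested, 38 of 52 were called lower (73.1%), where 13.6% of all genes tested were. Called higher were 0 genes, where 11.1% of all genes tested were, and DESeq2 also called 0 higher. In edgeR, 1 gene, ORC4, was higher at an adjusted p under 0.05 (0.00214), with a fold change under 1.5. Of the 14 genes not called, 8 had an adjusted p under 0.05 with a fold change under 1.5. The median log2 fold change of the 52 genes was -1.21, against -0.010 for all genes tested. In 48 genes every si-EIF5A2 library lay below every NC library (92.3%, against 26.5% of all genes tested). In 1 gene, ORC4, every si-EIF5A2 library lay above (24.7% of all genes tested did so), and in ORC5, RPA1 and TIPIN the groups overlapped. RNA from a pool of cells cannot tell fewer cells in S phase from less RNA of these genes per cell.

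The fall was spread over the steps of replication but was not uniform within complexes. The mean level in si-EIF5A2 was under 50% of the NC mean for 32 genes and under 25% for 6: ORC1, CDT1, MCM10, CDC45, PRIM1 and LIG1. The 6 genes belong to 6 different groups of the machinery, namely ORC, licensing, the other MCM proteins, the CDC45-GINS helicase partners, primase and the lagging strand. All of the listed genes were called lower among the licensing factors (3 of 3), CDC45 and GINS (5 of 5) and the lagging-strand enzymes (4 of 4). By contrast, 2 of 6 ORC genes and 2 of 4 genes of polymerase alpha-primase were called.

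**Figure D1:**
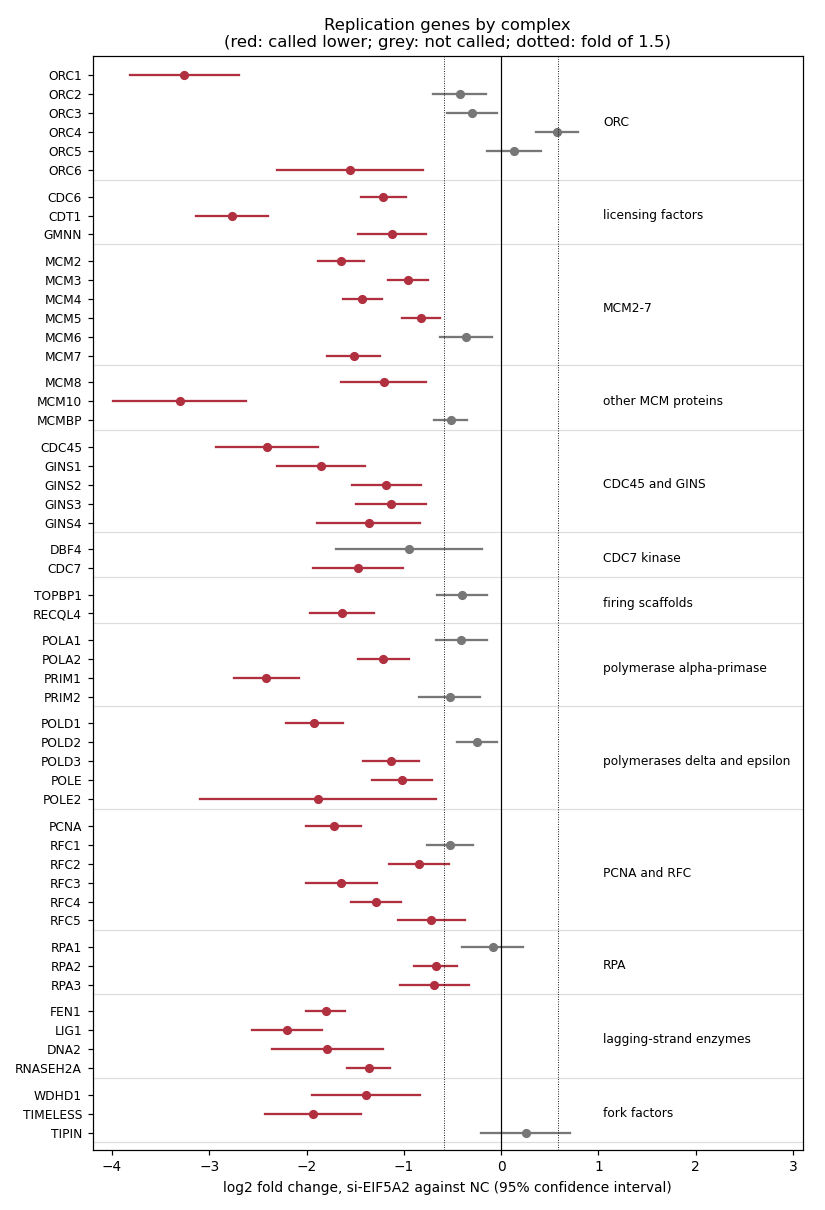
Log2 fold change of each of the 52 replication genes, si-EIF5A2 against NC (x axis), with the 95% confidence interval as a line. Genes are grouped by complex on the y axis, red marks the 38 genes called lower and grey the 14 not called, and dotted lines mark a fold change of 1.5. ORC4, ORC5 and TIPIN are the only points right of 0.

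The libraries of a group were alike for these genes. Relative to the NC mean, the median log2 level of the 52 genes was -0.09, 0.03 and 0.05 in NC, against -1.18, -1.21 and -1.19 after si-EIF5A2. The 3 medians of each group thus lay close together, and the groups were far apart. The summed level of the 52 genes was 1895 to 2058 CPM in NC and 992 to 1059 CPM in si-EIF5A2. Library NC 1 was the lowest NC library for 36 of the 52 genes, and no si-EIF5A2 library was lowest for more than 22.

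**Figure D2:**
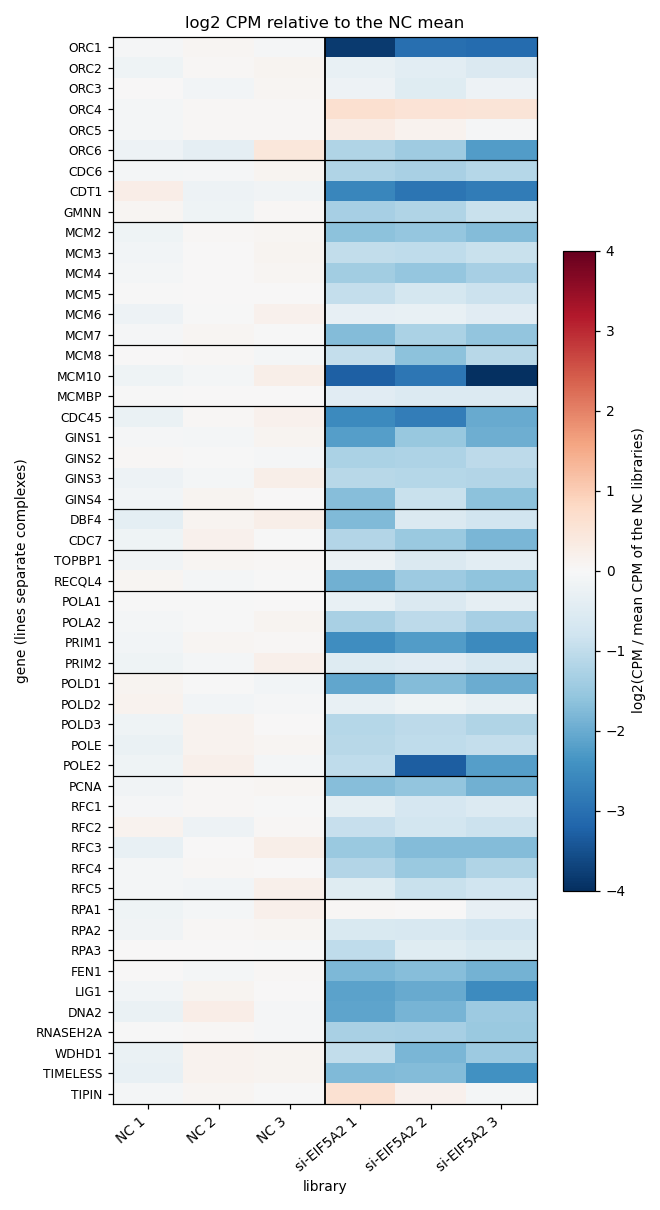
Log2 of each gene's CPM relative to its mean in the NC libraries (colour, blue lower and red higher) for the 52 replication genes (y axis, horizontal lines separate complexes) in the 6 libraries (x axis). The 3 si-EIF5A2 columns are blue for most genes, with ORC4 red in all 3 of them and ORC5, RPA1 and TIPIN mixed.

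Among the origin recognition genes, ORC1 and ORC6 fell while the other subunits differed little or the other way. ORC1, an ATP-binding subunit whose protein level varies over the cell cycle, stood at 8.65, 9.36 and 8.68 CPM in NC against 0.626, 1.09 and 1.06 CPM in si-EIF5A2. The groups were far apart (log2 fold change -3.26, SE 0.24, adjusted p = 4.13e-05), though the si-EIF5A2 libraries held only 32 to 57 estimated counts of it. ORC6, the smallest subunit, was measured at 12.4, 10.98 and 19.2 CPM against 6.12, 5.33 and 3.02 CPM (log2 fold change -1.55, SE 0.32, adjusted p = 0.00782). NC replicate 3 was high for ORC6, and the groups did not overlap.

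The core subunits ORC2, ORC3, ORC4 and ORC5 were not called. ORC2 was at 24.2 CPM in NC against 18.0 CPM in si-EIF5A2 (log2 fold change -0.43, adjusted p = 0.0237), and ORC3 at 27.7 and 22.5 CPM (-0.30, adjusted p = 0.0713). ORC4 went the other way: its NC libraries were at 18.9, 20.7 and 20.8 CPM and its si-EIF5A2 libraries at 31.7, 29.3 and 28.9 CPM. That was a log2 difference of 0.57 (SE 0.09, adjusted p = 0.00214), or 149% of NC, just short of the fold limit. ORC5 overlapped between the groups, at 16.1 to 17.3 CPM in NC and 16.2 to 20.6 CPM in si-EIF5A2 (adjusted p = 0.449). A rough scale between genes is CPM per kb of exon, which divides by the merged length of all annotated exons. The order of genes on it depends on that length, 3157 bases for ORC1 and 8915 for ORC4. By it, ORC1 was at 2.82 and ORC4 at 2.26 in NC, but at 0.294 and 3.36 in si-EIF5A2.

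The 3 licensing factors all fell. CDT1, which brings the MCM2-7 ring to the origin, stood at 48.8, 35.2 and 36.7 CPM in NC against 6.59, 5.35 and 5.80 CPM in si-EIF5A2. All si-EIF5A2 libraries were far below all NC libraries (log2 fold change -2.77, SE 0.16, adjusted p = 1.44e-05), and CDT1 was left at 14.7% of NC. Its partner CDC6, an ATPase, was at 36.1, 37.1 and 41.6 CPM against 16.6, 15.5 and 17.5 CPM (log2 fold change -1.21, SE 0.10). GMNN encodes geminin, the inhibitor that binds CDT1 and blocks a repeat of licensing. It was at 18.2, 15.3 and 17.8 CPM against 6.88, 7.51 and 9.24 CPM (log2 fold change -1.12, SE 0.15). The 95% confidence intervals of the log2 fold change were -3.14 to -2.39 for CDT1 and -1.47 to -0.77 for GMNN and did not overlap. In CPM per kb of exon, CDT1 was above GMNN in NC (12.1 and 6.92) and below it in si-EIF5A2 (1.77 and 3.18). This pair was picked out after the values were seen and was not tested.

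**Figure D3:**
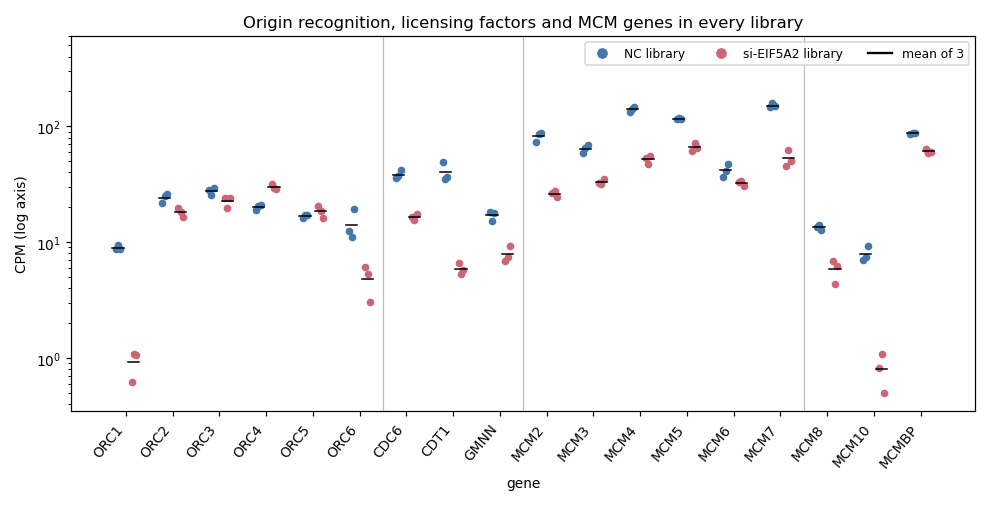
CPM (y axis, log scale) of the ORC genes, the licensing factors, MCM2 to MCM7 and the other MCM genes (x axis, vertical lines separate the groups) in every library, NC in blue and si-EIF5A2 in red. Black bars are means of 3 libraries. ORC1, CDT1 and MCM10 show the widest gaps, and ORC4 is the one gene of the plot whose si-EIF5A2 libraries all lie above NC.

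Of the 6 genes of the replicative helicase ring, 5 fell and MCM6 was not called. MCM2 was at 73.1, 85.7 and 87.4 CPM in NC against 26.3, 27.9 and 24.4 CPM in si-EIF5A2 (log2 fold change -1.65, SE 0.10, adjusted p = 1.99e-05). MCM7 was at 146, 158 and 149 CPM against 45.5, 62.2 and 50.6 CPM (-1.52, SE 0.12). MCM4 was at 134, 141 and 148 CPM against 53.6, 47.8 and 55.6 CPM (-1.43, SE 0.09). For all of these the groups were well apart. MCM3 was left at 51.5% of NC and MCM5 at 56.4%, with log2 fold changes of -0.96 and -0.82.

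MCM6, a subunit of the same ring, was at 36.3, 41.4 and 47.5 CPM in NC against 33.0, 33.9 and 30.4 CPM in si-EIF5A2. The groups did not overlap, but the difference of -0.36 in log2 (SE 0.12, adjusted p = 0.041) stayed under the fold limit. On the rough scale of CPM per kb of exon, the ring subunits were closer to each other in si-EIF5A2. In NC they ranged from 10.1 (MCM6) to 34.4 (MCM7), a ratio of 3.39. In si-EIF5A2 they ranged from 5.35 (MCM2) to 12.03 (MCM7), a ratio of 2.25.

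The other MCM genes fell to different extents. MCM10, which is not part of the ring and helps to start unwinding, was at 7.002, 7.496 and 9.29 CPM in NC against 0.821, 1.07 and 0.5004 CPM in si-EIF5A2. It had the lowest fold change of the 52 genes (log2 -3.30, SE 0.30, adjusted p = 0.000106), on 24 to 56 estimated counts per si-EIF5A2 library. MCM8, which acts with MCM9 in recombination repair, was at 13.4 CPM in NC against 5.81 CPM in si-EIF5A2 (log2 fold change -1.21). MCMBP, a binding partner of MCM proteins, was at 86.2 to 88.4 CPM and 59.2 to 63.7 CPM. Its difference of -0.52 was well beyond the spread (adjusted p = 0.000932) but under the fold limit.

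CDC45 and all GINS subunits fell. CDC45 was at 13.1, 16.6 and 18.0 CPM in NC against 2.74, 2.36 and 3.92 CPM in si-EIF5A2 (log2 fold change -2.41, SE 0.23, adjusted p = 0.000133). The GINS genes, whose products form a single tetramer, had log2 fold changes of -1.86 (GINS1), -1.18 (GINS2), -1.13 (GINS3) and -1.36 (GINS4). They were left at 27.6% to 45.6% of NC. Their levels ranged from 2.15 to 3.28 CPM per kb in NC and from 0.901 to 0.981 in si-EIF5A2.

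Of the factors that fire origins, CDC7 and RECQL4 fell. CDC7, the kinase that phosphorylates the MCM ring, was at 8.39, 10.6 and 9.21 CPM in NC against 4.15, 3.35 and 2.67 CPM in si-EIF5A2 (log2 fold change -1.47, SE 0.20, adjusted p = 0.000805). DBF4, its activating subunit, was at 3.91, 5.53 and 6.02 CPM against 1.53, 3.45 and 3.04 CPM (-0.95, SE 0.32) and was not called, with an adjusted p of 0.0533. It was called in 6 of 14 alternatives, DESeq2 among them (adjusted p = 0.024). RECQL4, a helicase of the RecQ family needed for initiation, was at 27.3 CPM in NC against 8.79 CPM in si-EIF5A2 (-1.64, SE 0.14). TOPBP1, a scaffold of origin firing and checkpoint signalling, was at 55.9 and 42.3 CPM (-0.40, adjusted p = 0.0219), under the fold limit.

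Polymerase alpha-primase, which lays down the RNA-DNA primers, split by subunit. PRIM1, the catalytic primase subunit, stood at 14.7, 16.6 and 16.3 CPM in NC against 2.82, 3.37 and 2.73 CPM in si-EIF5A2 (log2 fold change -2.41, SE 0.15, adjusted p = 1.64e-05). PRIM2, the large primase subunit, was at 15.6, 16.9 and 20.5 CPM against 12.3, 12.97 and 11.4 CPM (-0.53, SE 0.14, adjusted p = 0.0173) and was not called. PRIM1 was thus left at 18.8% of NC and PRIM2 at 69.3%. POLA2, the accessory subunit, fell (-1.21, SE 0.11), while POLA1, the catalytic polymerase, was at 18.2 and 13.7 CPM (-0.41, adjusted p = 0.0229). The annotated exons of PRIM1 and POLA2 share 395 and 2012 bases with same-strand genes, which makes both counts uncertain.

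Polymerases delta and epsilon, which extend the lagging and the leading strand, fell except for POLD2. POLD1, the catalytic subunit of delta, was at 36.1, 33.6 and 31.5 CPM in NC against 7.92, 10.2 and 8.61 CPM in si-EIF5A2 (log2 fold change -1.92, SE 0.13, adjusted p = 2.40e-05). POLD2, an accessory subunit of the same enzyme, was at 146, 121 and 126 CPM against 107, 116 and 107 CPM (-0.25, SE 0.09, adjusted p = 0.0643). The POLD2 groups lay apart by a narrow margin, and the gene was not called. POLD3 was left at 45.6% of NC and POLE, the catalytic subunit of epsilon, at 49.5%.

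POLE2, an accessory subunit of epsilon, was the faintest of the 52 genes in NC at 1.01 CPM per kb. It was at 2.67, 3.47 and 2.85 CPM in NC against 1.49, 0.307 and 0.646 CPM in si-EIF5A2, the lowest of these from 16 estimated counts. Its log2 fold change was -1.88 with an SE of 0.52 (adjusted p = 0.0247), the widest error of the set, and it was no longer called without NC replicate 1, 2 or 3 or without si-EIF5A2 replicate 3, where it was between -1.96 and -1.75. Over all fits that leave out 1 library it ranged from -2.66, without si-EIF5A2 replicate 1, to -1.49, without si-EIF5A2 replicate 2.

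PCNA and most of its loader fell. PCNA, the sliding clamp, was at 54.4, 62.5 and 63.9 CPM in NC against 18.4, 20.4 and 15.9 CPM in si-EIF5A2 (log2 fold change -1.72, SE 0.12, adjusted p = 3.07e-05). Of the loader subunits, RFC3 and RFC4 were at 32.0% and 41.0% of NC and RFC2 and RFC5 at 55.8% and 60.8%. RFC1, the large subunit, was at 32.6, 35.4 and 33.8 CPM against 26.1, 21.4 and 23.1 CPM (-0.53, SE 0.10, adjusted p = 0.00482), under the fold limit. The 5 loader subunits thus ranged in log2 fold change from -1.64 (RFC3) to -0.53 (RFC1).

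Of the subunits of RPA, which coats single-stranded DNA, RPA2 and RPA3 fell and RPA1 was not called. RPA1, its large subunit, was at 111, 120.0 and 146 CPM in NC against 129, 127 and 100.2 CPM in si-EIF5A2, and the groups overlapped (log2 fold change -0.09, 95% confidence interval -0.40 to 0.23, adjusted p = 0.662). RPA2 was at 44.3 and 27.7 CPM (-0.67, SE 0.10) and RPA3 at 17.9 and 11.2 CPM (-0.69, SE 0.15). Without si-EIF5A2 replicate 1, RPA3 was at -0.55 and not called.

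The enzymes that finish the lagging strand all fell. FEN1, the flap nuclease, stood at 98.8, 93.5 and 102 CPM in NC against 28.3, 29.9 and 26.2 CPM in si-EIF5A2. It had the smallest adjusted p of the 52 genes (log2 fold change -1.80, SE 0.09, adjusted p = 7.28e-06). LIG1, the ligase that seals the fragments, was at 27.2, 31.5 and 29.6 CPM against 6.73, 7.30 and 5.11 CPM (-2.21, SE 0.16). DNA2, a nuclease and helicase that cuts long flaps, was at 5.30 and 1.54 CPM (-1.79, SE 0.25), and RNASEH2A, the catalytic subunit of ribonuclease H2, at 40.3 and 15.7 CPM (-1.36, SE 0.09). The strand setting of the counting is not given in the sources used here, and FEN1 overlaps TMEM258 on the other strand, as several other members overlap an antisense gene, among them ORC4 (ACVR2A and MBD5), MCM7 (AP4M1), RFC4 (EIF4A2) and RFC5 (WSB2). On the same strand, FEN1 shares 49 exon bases with FADS2 and RNASEH2A 1123 with THSD8, POLD1 shares 426 with AC020909.1 and POLD3 123 with AP001372.2.

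Of the fork factors, TIMELESS and WDHD1 fell and TIPIN was not called. The products of TIMELESS and TIPIN form a complex that protects the fork. TIMELESS was at 25.9, 35.2 and 34.5 CPM in NC against 9.41, 9.62 and 6.004 CPM in si-EIF5A2 (log2 fold change -1.93, SE 0.21, adjusted p = 0.000337). TIPIN was at 5.03, 5.51 and 5.23 CPM against 7.94, 5.86 and 4.98 CPM, with overlapping groups (0.25, SE 0.20, adjusted p = 0.367). The annotated exons of TIPIN share 579 bases with a pseudogene on the same strand. WDHD1, which links the helicase to polymerase alpha, was at 10.4 and 3.96 CPM (-1.39, SE 0.24).

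The order of the highest levels per length differed between the groups. In NC the highest genes were PCNA (41.0 CPM per kb of exon), FEN1 (39.6), POLD2 (35.5) and MCM7 (34.4), followed by RPA1 (22.9). In si-EIF5A2 the order was POLD2 (29.8), RPA1 (21.6), RPA2 (13.7), PCNA (12.4) and MCM7 (12.03). Across the 52 genes, the NC level per kb and the log2 fold change had a Spearman correlation of 0.079, a description over genes that share the same 6 libraries.

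**Figure D4:**
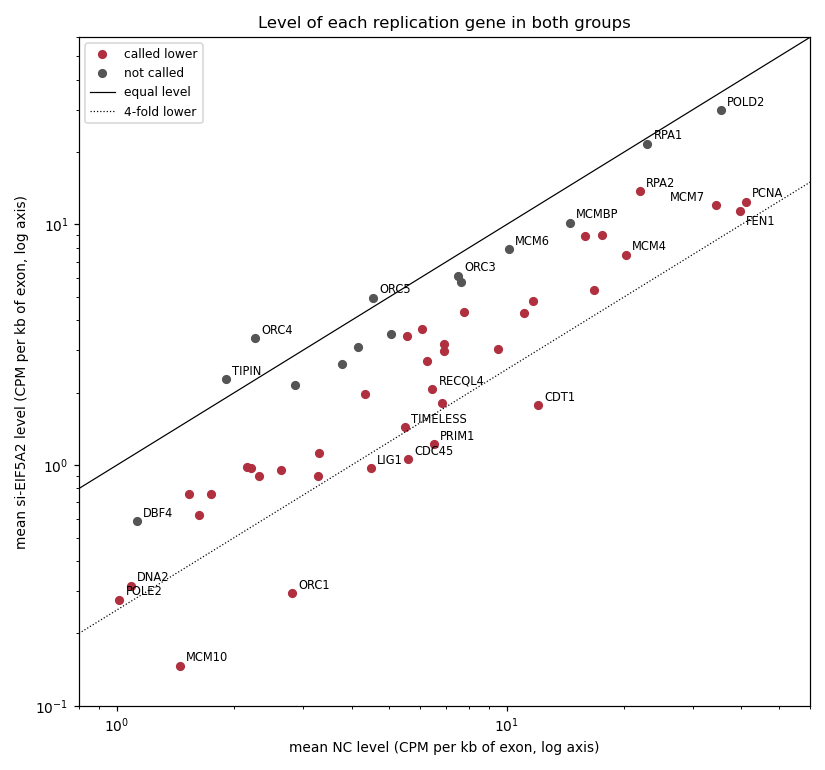
Mean level of each of the 52 replication genes in NC (x axis) and si-EIF5A2 (y axis), both in CPM per kb of exon on log axes, with red for genes called lower and grey for genes not called. The solid line marks equal levels and the dotted line a level 4-fold lower. POLD2 and RPA1 lie at the upper right near the solid line, while PCNA, FEN1 and MCM7 lie well below it.

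Promoters of the replication genes often held a sequence like the binding site of E2F. RefSeq promoters (GRCh38.p14, 250 bases before to 50 after the start) were found for 44 of the 52 genes. They were searched on both strands for TTTCCCGC, TTTGGCGC, TTTCGCGC or TTTGCCGC, here called E2F-like sites. Only the first listed promoter of each gene was searched, and only exact matches were counted. Such a site was in 19 of 44 promoters (43.2%), against 908 of 27305 promoters overall (3.33%) and 591 of 11171 promoters of tested genes (5.29%). It was in 15 of the 30 promoters of genes called lower and in 4 of the 14 of genes not called: ORC3, MCM6, TOPBP1 and POLA1. Of the 25 sites, 17 began between 60 bases before and 40 after the start (68%, against 35.1% of the 954 sites in all promoters). These are descriptions of letters in a window and show no binding.

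The stretches of 100 bases show where the sites lie, with the E2F-like letters in capitals and all sequences written 5′ to 3′ in the direction of transcription. They are the promoters of MCM2, MCM3 and MCM7 of the helicase ring, of CDC6 and CDT1 that load it, of GINS1 and PCNA, and, for contrast, of MCM6, which was not called. Each runs from 60 bases before the start to 40 after it, except PCNA (80 before to 20 after) and MCM6 (160 to 61 before).
MCM2 (chr3:127598351-127598450, plus strand): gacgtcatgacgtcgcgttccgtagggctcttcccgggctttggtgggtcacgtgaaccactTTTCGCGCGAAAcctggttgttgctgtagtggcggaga
MCM3 (chr6:52284703-52284802, minus strand): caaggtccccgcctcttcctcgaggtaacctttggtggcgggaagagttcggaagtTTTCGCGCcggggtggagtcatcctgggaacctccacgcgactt
MCM7 (chr7:100101358-100101457, minus strand): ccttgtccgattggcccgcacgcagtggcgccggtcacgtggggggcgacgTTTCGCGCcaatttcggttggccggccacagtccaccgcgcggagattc
CDC6 (chr17:40287819-40287918, plus strand): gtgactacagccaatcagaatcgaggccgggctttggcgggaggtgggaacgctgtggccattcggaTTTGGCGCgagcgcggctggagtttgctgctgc
CDT1 (chr16:88803729-88803828, plus strand): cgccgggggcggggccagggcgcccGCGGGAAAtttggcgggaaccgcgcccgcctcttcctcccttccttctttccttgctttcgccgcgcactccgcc
GINS1 (chr20:25407613-25407712, plus strand): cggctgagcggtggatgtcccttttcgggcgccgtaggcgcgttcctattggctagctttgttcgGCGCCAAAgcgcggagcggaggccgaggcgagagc
PCNA (chr20:5126603-5126702, minus strand): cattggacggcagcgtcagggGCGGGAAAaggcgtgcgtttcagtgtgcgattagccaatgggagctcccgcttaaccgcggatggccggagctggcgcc
MCM6 (chr2:135876504-135876603, minus strand): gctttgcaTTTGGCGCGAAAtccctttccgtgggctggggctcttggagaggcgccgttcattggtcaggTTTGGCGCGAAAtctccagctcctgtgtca

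The capitals of MCM2 are 2 overlapping sites on opposite strands, and those of MCM6 are 2 such overlapping pairs, 4 sites in all. MCM3 and MCM7 each held a further site upstream of the stretch shown. With each strand counted, MCM6 held the most sites of the 44 promoters and was left at 77.7% of NC. Its sites lie in 2 separate places, as do those of MCM3 and MCM7, which were called lower. CDT1, with 1 exact site, was left at 14.7%. The letters tttggcgg right after that site differ from TTTGGCGC by 1 letter and were not counted. The pair of MCM6 and CDT1 was picked out after the values were seen and was not tested. Its sites lie at different distances from the start. ORC1, MCM10, CDC45 and PRIM1, all under 25% of NC, held none of these exact letters in the window searched. Near matches and other starts were not searched for any gene. The median log2 fold change was -1.21 for the 19 genes with a site and -1.12 for the 25 without. Called lower were 15 of the 19 with a site and 15 of the 25 without, and among the other genes tested 19.8% of 572 with a site and 14.5% of 10555 without. These shares are given as a description, with no test. The CCAAT box was in 24 of 44 promoters (54.5%, against 36.4% of tested genes), and the CHR letters TTTGAA in 1, that of DBF4 (2.27%, against 9.72%).

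Further genes of DNA replication were lower too. They come from a second list, chosen with earlier results of these data known, and are no independent check. Of its 41 genes, 40 were tested and 21 were called lower (52.5%, against 13.6% of all genes tested). Their median log2 fold change was -0.61. By edgeR and by DESeq2, 0 of them were called higher. In edgeR, 4 of them, CUL4A, ETAA1, POLD4 and TOP1, were higher at an adjusted p under 0.05 with a fold change under 1.5. In these 4 genes every si-EIF5A2 library lay above every NC library (24.7% of all genes tested did so). In 29 of the 40 every si-EIF5A2 library lay below every NC library (26.5% of all genes tested), and in 7 the groups overlapped. Among those called that averaged 10 CPM or more, the lowest was ASF1B, a histone chaperone at the fork, at 31.2 ± 0.909 CPM in NC against 3.60 ± 0.689 CPM in si-EIF5A2 (SD, n = 3 each; log2 fold change -3.11). DTL, which targets CDT1 for degradation, followed at 17.8 ± 2.48 and 2.24 ± 0.209 CPM (-2.99). DBF4B, a second activator of CDC7, had a log2 fold change of -2.12, CHAF1A, of the chromatin assembly factor, of -1.86, and TONSL, a fork repair factor, of -1.83. The called genes nearest to 0 were SSRP1 (-0.59), RNASEH2C (-0.62) and RNASEH1 (-0.80).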

How the data were processed

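The authors sequenced paired-end mRNA libraries and estimated expression with StringTie and ballgown. They deposited estimated counts per gene, already whole numbers and not normalized. The labels name Bowtie 0.12.2 and mouse genome builds, although the identifiers in the table are human; the aligner, build and strand setting used for this table are not given in the sources used here. All 6 columns were matched to libraries by name, with 0 left over. Symbols were found for 58472 identifiers, and exon lengths and overlaps were taken from GENCODE release 29 (GRCh38, 58552 identifiers).

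Counts were tested with edgeR 4.0.16 (R 4.3.3): filterByExpr, TMM, robust quasi-likelihood fits with condition as the only term, with 16208 genes in the Benjamini-Hochberg adjustment (common biological coefficient of variation 0.261). SEs were obtained as log2 fold change over root F, and CPM per kb is CPM over the merged exon length. The steps were tested on simulated counts. Members, complexes, lists and motifs were chosen with earlier results of these data known. All 52 members are named, with EIF5A2 and, of the second list, the 5 lowest and 3 highest fold changes among genes called that averaged 10 CPM or more. Alternatives were DESeq2 1.42.0, RLE, upper-quartile and library-size scaling, other filters, a replicate block, counts divided by their step, each library left out, and other thresholds. RefSeq promoters were not used for MCM4, MCM5, GINS4, RECQL4, POLD3, RPA2, RPA3 and DNA2. Exact permutation of 3 against 3 libraries cannot give a p below 0.10 and was not used.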

Additional observations from a re-analysis of the deposited data

How the results depend on the processing

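The number of replication genes called lower was 38 and lay between 37 and 39 under DESeq2, the scalings, both filters, the replicate block, division by the step and leaving out each library; it was 45 with no limit on the fold change and 32 at the study's other threshold (unadjusted p under 0.05, more than 2-fold). Among all genes tested, the number called lower ran from 1968 of 16710 (without NC replicate 2) to 2434 of 19087 (DESeq2). As a share of the genes tested, it was smallest with no filter on low counts (2291 of 25627). It was largest with counts divided by their step (2214 of 13701). In the main fit, 1982 of 16208 genes, in either direction, had an adjusted p under 0.05 with a fold change under 1.5. Over all genes, the share lower with no limit on the fold change and the share at the unadjusted threshold were not counted. The 45 and 32, and the 26 and 15 of the second list given below, therefore stand without a matching share. Of the 38 replication genes, 36 kept the call in each of 14 alternatives fitted, and POLE2 and RPA3 lost it in at least 1. ORC4, DBF4, PRIM2 and RFC1 gained one in at least 1. The number called higher was 0 to 1 over the fits that leave out 1 library (ORC4, at 0.59 when replicate 2 or 3 of either group was left out) and 1 with no limit on the fold change. For the other replication genes it was 0 to 1 (POLD4 without NC replicate 1, CUL4A when NC replicate 3 or si-EIF5A2 replicate 2 was left out) and 4, respectively. Their number called lower was 19 to 21 over the fits, 26 with no limit on the fold change and 15 at the unadjusted threshold. The median log2 fold change of the 52 genes was -1.24 with no filter on low counts and -1.26 to -1.18 when a library was left out. RPA1 lay between -0.17 and 0.03 when a library was left out: it changed sign to 0.03 once NC replicate 3 was dropped and to 0.02 in the fit lacking si-EIF5A2 replicate 3. The cause was not tested.

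Libraries with the same replicate number showed no shared deviation from their group means (correlations of deviations -0.024, 0.0052 and -0.0027). These values cannot tell whether such libraries were prepared together. With the replicate block, 39 replication genes were called lower and 0 higher, 20 and 0 of the other replication genes, the median was -1.21, and EIF5A2 was at -3.00. Depth limits ORC1, MCM10 and POLE2 most, with 57 estimated counts or fewer, about 3.82 to a fragment, in ORC1 and MCM10 in each si-EIF5A2 library.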
